A study of Homo sapiens with 17 samples.

Results

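The sites described here are gene ends that carried H3K27ac and POLIIS2P in control cells but had no HNRNPU summit nearby, in the H1 line of human pluripotent stem cells. They were chosen by the positions of H3K27ac, POLIIS2P and HNRNPU summits. A summit is the base of highest signal in a called CUT&Tag peak. The starting list was repeat 1 of the shLUC library whose peak names read H3K27ac, with 62449 summits, of which 61598 lay on chromosomes 1 to 22. A summit within 1000 bp of an end of a RefSeq protein-coding gene, with a summit of repeat 2 within 250 bp and a summit of both POLIIS2P shLUC libraries within 500 bp, was called an active gene end, and 4911 summits met this. Of these, 4057 had an HNRNPU summit within 1000 bp in both HNRNPU repeats (HNRNPU-bound) and 449 in 1 repeat. The remaining 405, or 8.25% of the active gene ends, had none in either repeat and are the members. Their nearest genes numbered 399, and 451 genes had an end within 1000 bp of a member.

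HNRNPU is an abundant nuclear protein that binds RNA and, in the nuclear matrix, is linked to chromatin organisation, transcription and splicing. H3K27ac is an acetylation of histone H3 found at active promoters and enhancers. H3K4me1 is a methylation of the same histone that marks enhancers and the flanks of active promoters. POLIIS2P is the name commonly used for the elongating form of RNA polymerase II, which accumulates toward the ends of transcribed genes.

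The promoters shown first belong to the members with the strongest H3K27ac whose summit lay at a known transcription start. Each sequence holds the 250 bases before the start, taken from RefSeq (GRCh38.p14) and written 5′ to 3′ on the gene's own strand. They lie at chr20:54207837-54208086 on the plus strand (PFDN4), chr20:37527877-37528126 on the minus strand (BLCAP), chr12:120529159-120529408 on the minus strand (COQ5) and chr3:40457089-40457338 on the plus strand (RPL14). Capitals mark matches on either strand to a CCAAT box, to a GC box with the letters GGGCGG or to a part of the binding motif of the NRF1 factor. The NRF1 letters searched were GCGCATG.
PFDN4: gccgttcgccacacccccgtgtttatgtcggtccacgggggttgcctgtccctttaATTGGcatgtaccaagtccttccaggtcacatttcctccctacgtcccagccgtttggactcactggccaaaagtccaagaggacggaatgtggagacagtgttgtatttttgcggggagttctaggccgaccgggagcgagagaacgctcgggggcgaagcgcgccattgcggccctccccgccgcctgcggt
BLCAP: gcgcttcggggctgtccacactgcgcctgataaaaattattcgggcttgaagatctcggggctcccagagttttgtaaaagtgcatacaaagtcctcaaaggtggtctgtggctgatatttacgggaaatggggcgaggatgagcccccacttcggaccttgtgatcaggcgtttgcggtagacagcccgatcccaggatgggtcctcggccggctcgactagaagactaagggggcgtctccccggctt
COQ5: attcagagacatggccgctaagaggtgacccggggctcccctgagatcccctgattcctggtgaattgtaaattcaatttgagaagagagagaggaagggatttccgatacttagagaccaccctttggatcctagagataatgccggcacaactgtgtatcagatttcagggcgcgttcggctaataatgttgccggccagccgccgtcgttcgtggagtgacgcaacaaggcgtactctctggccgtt
RPL14: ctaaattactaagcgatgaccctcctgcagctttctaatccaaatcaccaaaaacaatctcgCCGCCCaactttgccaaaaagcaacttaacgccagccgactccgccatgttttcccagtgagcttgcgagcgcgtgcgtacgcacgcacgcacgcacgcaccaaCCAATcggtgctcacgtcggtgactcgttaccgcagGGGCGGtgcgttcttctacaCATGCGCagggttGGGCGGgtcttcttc
RPL14 held 3 GC boxes, a CCAAT box and the NRF1 letters. PFDN4 held 1 CCAAT box, and BLCAP and COQ5 held none of the motifs searched in these bases. The GC content of these sequences was 60.8% for PFDN4, 56.4% for BLCAP, 52.4% for COQ5 and 56% for RPL14. The H3K27ac summit lay 2 bp from the start of PFDN4, 95 bp upstream of BLCAP, 41 bp inside COQ5 and 20 bp upstream of RPL14.

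The shRNAs were delivered by virus, and puromycin selected the cells that took them up. The shRNAs shHNRNPU#1 and shHNRNPU#2 target HNRNPU, and the control shRNA, shLUC, targets luciferase. The HNRNPU libraries came from untransfected cells, so the absence of HNRNPU was measured in other cells than H3K27ac and POLIIS2P. Each shRNA had 2 H3K4me1 and 2 H3K27ac libraries, shLUC had 2 of each, POLIIS2P had 1 shHNRNPU#1 and 2 shLUC libraries, and HNRNPU had 2, in all 17. The labels do not say whether repeats were separate cultures, so p-values measure the spread between these libraries only. In 4 libraries, the histone libraries of shLUC, titles and peak names disagree on which histone mark was profiled. The list that chose the members is titled H3K4me1, and the peak names were followed throughout. The antibody list in the labels' protocol names HNRNPU and H3K27ac but neither H3K4me1 nor POLIIS2P. H3K4me1 lists held 147145 to 214333 summits, H3K27ac lists 40487 to 90914, POLIIS2P lists 79949 to 87456 and HNRNPU lists 34649 and 35526, and read depth was unknown. None of these assays measures the HNRNPU transcript or protein. Of 10 pluripotency genes found in the gene table, 5 had an H3K27ac summit at a gene end in both shLUC lists, against 0 of 14 genes of differentiated cells. POLIIS2P was at 7 of the 10 and 8 of the 14 in both shLUC lists. None of these genes was a member, but only 3 of the 10 and 0 of the 14 were at an active gene end.

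Most members with a known strand were at the annotated 3′ end of a gene. A site was called 5′ when the 5′ end of any protein-coding gene of known strand lay within 1000 bp, and 3′ when its nearest gene end was a 3′ end. The strand came from the RefSeq promoter table and was known for 316 of the 393 members off chromosome 8 (80.4%); the 12 members on chromosome 8 were not classed. Among the members, 206 were at a 3′ end, 110 at a 5′ end and 89 were unresolved. HNRNPU-bound active gene ends were 100 at a 3′ end, 3363 at a 5′ end and 594 unresolved. The 3′ share of the resolved sites was thus 65.2% among members and 2.89% among HNRNPU-bound sites, and it was 24.1% among sites with HNRNPU in 1 repeat. Read the other way, 52.6% of the 392 active 3′ ends and 2.94% of the 3744 active 5′ ends had no HNRNPU summit. Sites are not replicates and no test was made.

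The members also had weaker H3K27ac, so the ends were counted within tertiles of the shLUC repeat 1 score, taken here for the −log10 significance of the peak. Among 3′ ends, those without HNRNPU numbered 148 of 229 in the lowest tertile, 49 of 120 in the middle tertile and 9 of 43 in the highest. Among 5′ ends they numbered 66 of 1126, 35 of 1258 and 9 of 1360. Within every tertile the share without HNRNPU was higher at 3′ ends, and for both kinds of end it was highest in the lowest tertile. The ends were also counted without any condition on H3K27ac. Of all 15100 autosomal protein-coding genes of known strand, 3388 had POLIIS2P within 1000 bp of the 3′ end in both shLUC lists, and 71.3% of these had no HNRNPU summit there. At 5′ ends POLIIS2P was found at 8106 genes, of which 8.31% had no HNRNPU summit. Over all 15100 genes, with or without POLIIS2P, 91.4% of 3′ ends and 38.1% of 5′ ends had no HNRNPU summit. Lack of HNRNPU was thus common at 3′ ends in general and not particular to the members.

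**Figure D1:**
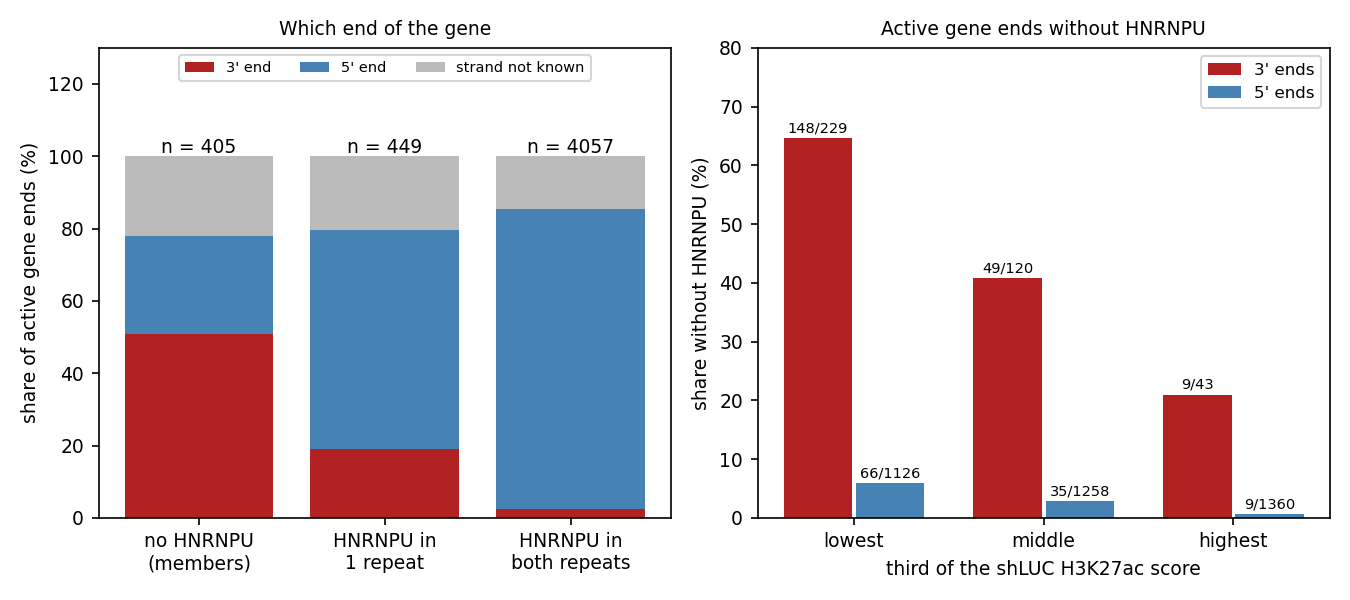
Left, share (%) of active gene ends at a 3′ end, a 5′ end or an end of unknown strand, for members and for sites with HNRNPU in 1 or both repeats. Right, share (%) of active 3′ and 5′ ends without HNRNPU in each tertile of the shLUC H3K27ac score, with the counts above the bars; 3′ ends were at 64.6%, 40.8% and 20.9%, and 5′ ends at 5.86%, 2.78% and 0.66%.

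Few 3′ members lay at another annotated start, which follows in part from how the ends were classed. A site within 1000 bp of the 5′ end of a protein-coding gene of known strand was called 5′. Genes of unknown strand had no start in the promoter table. Any transcription start of the promoter table, including noncoding genes and alternative starts, lay within 1000 bp of 3 of the 206 3′ members. One of them was at H3C4, where the summit was 40 bp from an internal annotated start. The same was true of 10 of the 100 HNRNPU-bound 3′ ends. The median distance of 3′ members from the gene end was 579 bp, and 98 of 206 lay downstream of it. The 5′ members were closer, with a median of 226 bp, and 73 of 110 lay inside the gene. HNRNPU-bound sites showed the same contrast. Their 3′ ends had a median of 516 bp, with 56 of 100 downstream, and their 5′ ends 151 bp, with 1915 of 3363 inside the gene. The genes of 3′ members had a median length of 22323 bp and those of 5′ members 23866 bp, beside 25894 bp for all genes of known strand.

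HNRNPU was present at the 5′ end of the gene of many 3′ members, with a share not far from that over all genes. Of the 206 3′ members, 119 (57.8%) had HNRNPU within 1000 bp of the 5′ end of their gene in both repeats, 35 in 1 repeat and 52 in none. For HNRNPU-bound 3′ ends the 5′ end of the gene carried HNRNPU in both repeats in 50 of 100, and over all genes of known strand in 48.9%. Of the 161 3′ members whose gene also had POLIIS2P at its 5′ end in shLUC repeat 1, 114 (70.8%) had HNRNPU there in both repeats. Over all genes with POLIIS2P at the 5′ end in both shLUC lists this share was 79.4%. The 206 sites lay at 202 different genes. For 104 of the 206 the 5′ end of the gene also had an H3K27ac summit of the starting list. This held for 40 of the 100 HNRNPU-bound 3′ ends and for 42.8% of all genes of known strand.

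**Figure D2:**
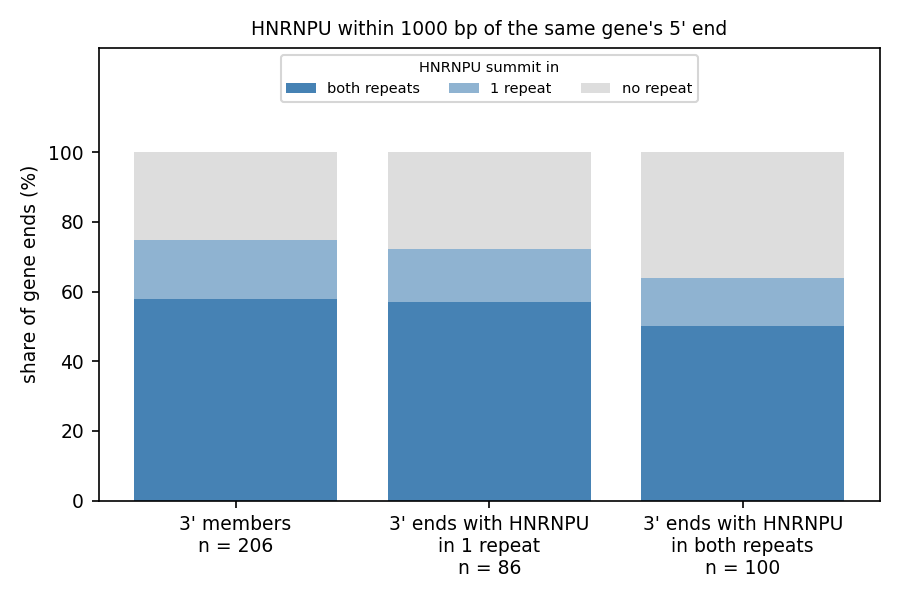
Share (%) of active 3′ gene ends whose gene had an HNRNPU summit within 1000 bp of its 5′ end in both repeats, 1 repeat or no repeat, for 206 members, 86 sites with HNRNPU in 1 repeat and 100 HNRNPU-bound sites. The share with HNRNPU in both repeats was 57.8% for 3′ members, 57.0% for sites with HNRNPU in 1 repeat and 50% for HNRNPU-bound sites. Over all genes of known strand it was 48.9%.

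The distance of the nearest HNRNPU summit from a member ran from 1016 to 84247 bp with a median of 7462 bp, and it was further than 10 kb at 167 members (41.2%). The median was 10791 bp for 5′ members and 7188 bp for 3′ members. At 40 members it was at most 2000 bp, and 9 members had an interval of the authors' joint HNRNPU list within 1000 bp. These distances follow in part from the rule. Just inside its limits were YJU2B (repeat 2 summit at 250 bp), OXNAD1 (POLIIS2P at 498 bp) and AMD1 (HNRNPU at 1016 bp). Just outside were POLR2E (251 bp), BLTP3A (503 bp) and WDR55 (1000 bp) for the same distances, and OPRD1, whose gene end was at 1006 bp.

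H3K27ac at the members was moderate in the lists that chose them. The median score of the members in repeat 1 was 5.24 and that of HNRNPU-bound sites 9.22. Because scores of different libraries have no common scale, levels are given as the percentile of a summit's score within its own list. The median percentile of the members was 57.0 in repeat 1 and 63.2 in repeat 2, and that of HNRNPU-bound sites 86.1 and 92.0. These values belong to the choice of the members and are given as a description.

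A few members were near the top of the H3K27ac list of every library. PFDN4, which encodes a subunit of the prefoldin chaperone, was at percentile 99.7 and 99.9 in the shLUC lists, 99.3 and 99.3 with shHNRNPU#1 and 99.8 and 99.0 with shHNRNPU#2. BLCAP, a gene known for editing of its RNA, was at 99.7 and 99.3 in shLUC, 99.2 and 98.7 with shHNRNPU#1, and 99.5 and 98.6 with shHNRNPU#2. Both sat at the top of all 6 lists, yet neither had an H3K4me1 summit within 500 bp in any of the 6 H3K4me1 lists. Their POLIIS2P was unequal: PFDN4 was at percentile 20.3 and 22.7 in the shLUC lists and BLCAP at 89.1 and 72.8, and neither had a summit in the shHNRNPU#1 list. The next HNRNPU summit lay 5009 bp from PFDN4 and 23483 bp from BLCAP.

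RNASEK, which encodes a ribonuclease, was at percentile 99.6 and 99.4 in shLUC and 97.7 to 99.7 in the shHNRNPU lists. The member between PSMA7, a subunit of the proteasome core, and SS18L1, a subunit of a chromatin remodelling complex, was at 98.4 and 98.7 in shLUC. Its shHNRNPU values were 88.3 and 42.0 with shHNRNPU#1 and 96.6 and 96.4 with shHNRNPU#2, so all 4 lay below both shLUC values. The same held at 22.6% of all active gene ends, with a list without a summit ranked below any percentile. The shLUC lists chose this member, so nothing is read from its lower values. COQ5, an enzyme of ubiquinone synthesis, was at 99.0 and 93.6 in shLUC and 90.1 to 99.5 in the shHNRNPU lists, which overlapped. RPL14, a protein of the large ribosomal subunit, was at 94.2 and 95.4 in shLUC, 93.1 and 79.3 with shHNRNPU#1 and 98.7 and 98.6 with shHNRNPU#2. SRRD, also among the genes with the strongest H3K27ac, was a 3′ end. It was at 95.3 and 98.0 in shLUC and 83.5 to 97.9 in the shHNRNPU lists.

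The members with the strongest POLIIS2P were different genes and, where the strand was known, all at 3′ ends. ARHGDIA was at percentile 99.4 and 99.3 of the POLIIS2P shLUC lists and 99.3 of the shHNRNPU#1 list. SF3B3, a subunit of the SF3B splicing complex, had 99.5 and 99.2 in shLUC and 98.7 with shHNRNPU#1. TEX2, LOC122455342 and BCAR1, a scaffold protein of focal adhesions, were at 99.0 to 99.4 in shLUC and at 98.1, 98.4 and 97.9 with shHNRNPU#1. Their H3K27ac was mixed. ARHGDIA was at 63.7 and 82.8 of the shLUC lists and SF3B3 at 43.3 and 54.3. SF3B3 had neither an H3K27ac summit in the 4 shHNRNPU lists nor an H3K4me1 summit in any of the 6 lists. ARHGDIA and TEX2 had H3K4me1 in all 6 lists, at percentiles 56.2 to 86.1 and 28.7 to 74.8.

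**Figure D3:**
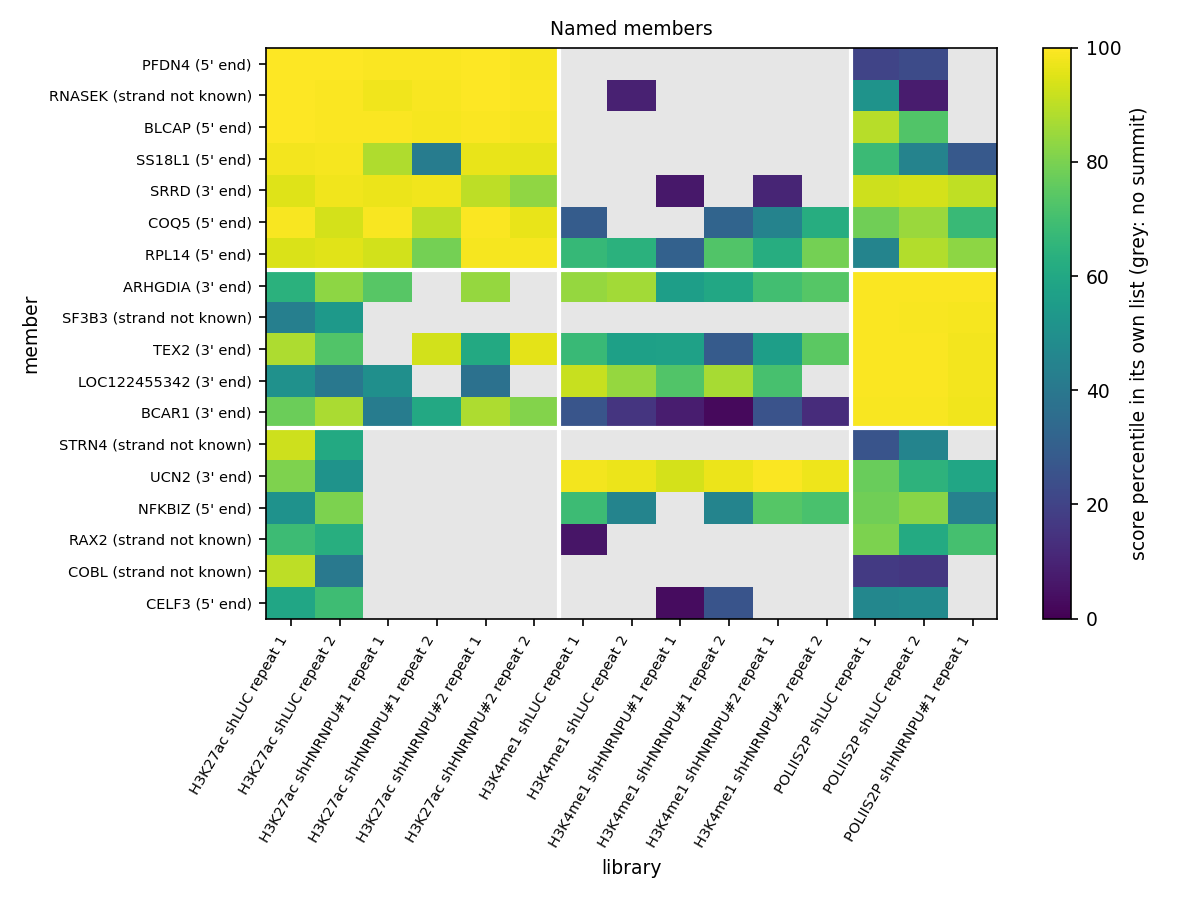
Score percentile within its own list (colour) of the strongest summit at 18 members (rows) in each H3K27ac, H3K4me1 and POLIIS2P library (columns, antibody by peak name), with grey for no summit within 250 bp (H3K27ac) or 500 bp. The rows are 7 members with the strongest H3K27ac, 5 with the strongest POLIIS2P and 6 found in none of the 4 shHNRNPU H3K27ac lists; PFDN4 and BLCAP are near 99 in every H3K27ac list and grey in every H3K4me1 list.

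In each of the 4 shHNRNPU libraries a smaller share of members than of HNRNPU-bound sites carried H3K27ac. These libraries took no part in choosing the sites. A summit lay within 250 bp of 53.8% and 46.2% of the members with shHNRNPU#1 and of 62.7% and 64.4% with shHNRNPU#2, a mean of 56.8% ± 8.47 (SD, n = 4). At HNRNPU-bound sites the mean was 78.5% ± 8.53 (SD, n = 4). The difference was −21.7 percentage points ± 0.48 (SD), with a range of −22.4 to −21.3, so all 4 libraries differed alike (exact sign-flip permutation p = 0.125, two-sided, the smallest that 4 libraries allow). It was −18.9 among 5′ ends and −16.7 among 3′ ends. Within tertiles of the shLUC score it was −11.2, −8.28 and −5.65 from the lowest to the highest, all smaller than over the whole set, in which members had the weaker shLUC summits. No H3K27ac summit was found in any of the 4 lists at 51 members (12.6%), beside 3.89% of all active gene ends. A summit in all 4 was found at 88 members (21.7%), beside 47.5% of all active gene ends. With both shLUC repeats added, the percentile was lower in all 4 shHNRNPU lists than in both shLUC lists at 30.9% of the members, beside 22.6% of all active gene ends, and higher at 2 members (0.49%), beside 0.652%. In these last counts a list without a summit was ranked below any percentile, so members absent from all 4 lists count as lower. The counts also use the lists that chose the members, and nothing is read from them.

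Among the members absent from all 4 lists, the strongest in shLUC were STRN4, UCN2, NFKBIZ, RAX2, COBL and CELF3. STRN4, of the striatin family, was at percentile 92.4 and 60.8 of the shLUC H3K27ac lists, and COBL, an actin nucleator, at 90.1 and 40.4, so the shLUC repeats were far apart. Neither had H3K4me1 in any list. UCN2, a peptide hormone, was at 80.8 and 51.3 of the H3K27ac lists and had H3K4me1 at percentiles of 93.7 to 99.3 in all 4 shHNRNPU and 97.1 to 98.2 in both shLUC lists. NFKBIZ, a regulator of NF-κB, was at 51.2 and 80.1 of the shLUC H3K27ac lists and had H3K4me1 in 5 of 6 lists. RAX2, a retinal homeobox gene, was at 68.5 and 62.8, and CELF3, an RNA-binding splicing regulator, at 59.3 and 68.9.

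**Figure D4:**
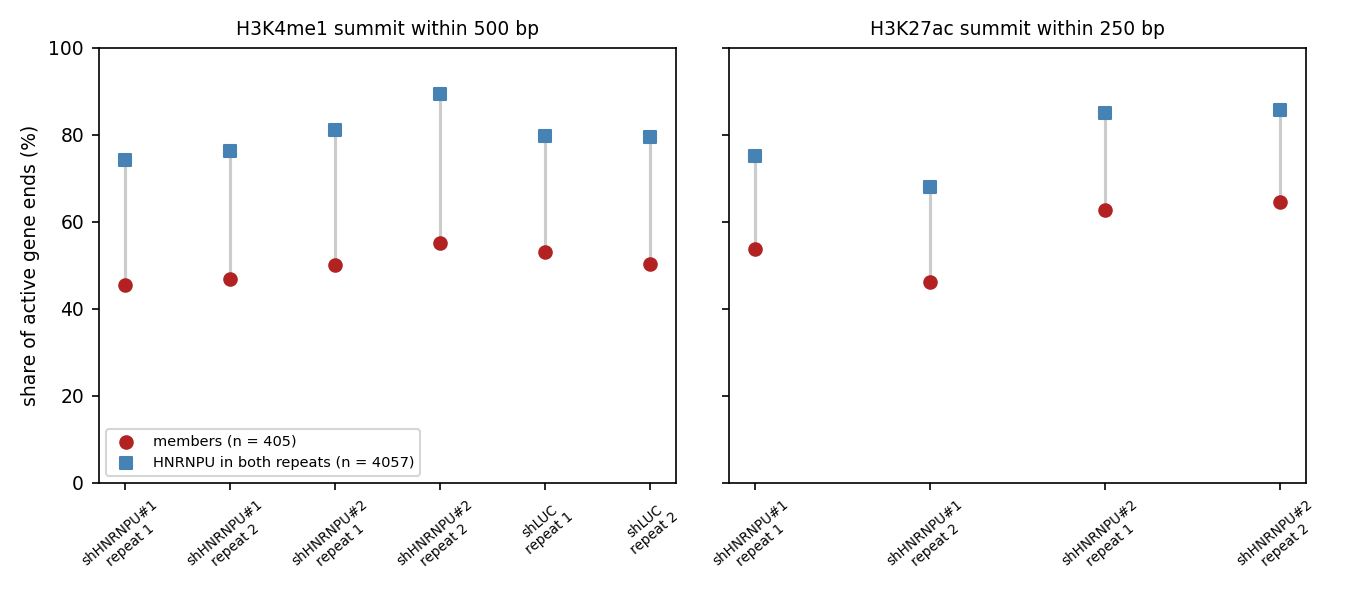
Share (%) of 405 members (circles) and 4057 HNRNPU-bound sites (squares) with an H3K4me1 summit within 500 bp (left, 6 libraries, antibody by peak name) or an H3K27ac summit within 250 bp (right, 4 shHNRNPU libraries). In every library the members are lower, by 26.7 to 34.4 percentage points for H3K4me1 and 21.3 to 22.4 for H3K27ac.

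H3K4me1, which was not used to choose the sites, was present at 45.4% to 55.1% of the members, depending on the library. With shHNRNPU#1 a summit lay within 500 bp of 45.4% and 46.9% of the members, with shHNRNPU#2 of 50.1% and 55.1%, and in shLUC of 53.1% and 50.4%. At HNRNPU-bound sites the mean was 80.2% ± 6.79 (SD, n = 4) with shHNRNPU and 79.6% ± 0.19 (SD, n = 2) in shLUC. Over the 6 libraries the members minus the HNRNPU-bound sites gave −29.8 percentage points ± 2.61 (SD, n = 6; exact sign-flip permutation p = 0.03125, two-sided, the smallest that 6 libraries allow). Within tertiles of the shLUC score the difference was −32.0, −17.8 and −30.0 from the lowest to the highest. It was −9.57 when each list was held to its 40000 strongest summits, and −20.6 with the shLUC libraries as titled (exact sign-flip permutation p = 0.125). In that last setting the shLUC libraries are those that chose the sites, so their difference was 0 by the rule and p could not be smaller.

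Members with H3K4me1 in every list and members with it in none were about as many. A summit was found in 6 of 6 lists at 141 members (34.8%), beside 55.7% of all active gene ends, and in 0 of 6 at 140 (34.6%), beside 8.94%. The 3′ members stood further from the HNRNPU-bound ends of their kind than the 5′ members did. At 3′ members the mean share was 47.9% ± 3.62 and at HNRNPU-bound 3′ ends 95.2% ± 1.89 (SD, n = 4 shHNRNPU libraries). At 5′ members it was 56.6% ± 5.05 and at HNRNPU-bound 5′ ends 79.5% ± 6.98. Over the 6 libraries the difference was −46.7 points at 3′ ends and −22.0 at 5′ ends, and these 2 differences were not tested against each other. Of the 206 3′ members 82 had no H3K4me1 in any list, and of the 100 HNRNPU-bound 3′ ends 1. Where members had H3K4me1, its median percentile was 56.6 to 63.5 over the 6 libraries, and at HNRNPU-bound sites with H3K4me1 it was 60.3 to 70.2. These ranges overlapped. Library by library, the members were lower in every shHNRNPU list and in shLUC repeat 1 (60.9 against 62.9). In shLUC repeat 2 they were higher (63.5 against 61.1). At 3′ ends alone the median percentile was 56.0 to 63.7 at members and 86.3 to 92.6 at HNRNPU-bound sites.

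The lower share of members held at every distance from 100 to 5000 bp. Over the 6 libraries the share of members with a summit was 29.9% ± 2.35 within 100 bp, 46.8% ± 3.17 within 250 bp, 54.5% ± 4.31 within 1000 bp and 62.8% ± 3.48 within 2000 bp (SD, n = 6). HNRNPU-bound sites stood at 66.9% ± 4.58 within 250 bp and 83.4% ± 5.31 within 1000 bp. At 5000 bp the shares were 78.6% ± 2.97 and 91.6% ± 3.60.

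**Figure D5:**
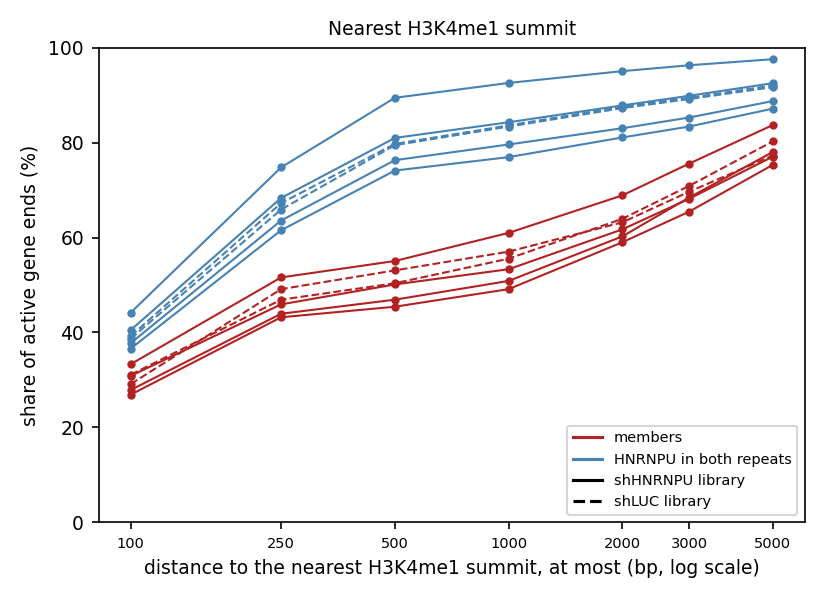
Share (%) of members (red) and HNRNPU-bound sites (blue) whose nearest H3K4me1 summit lay within the distance on the x axis (bp, log scale), 1 line per library, dashed for shLUC. The members' lines lie below the HNRNPU-bound lines at every distance, at 45.4% to 55.1% against 74.1% to 89.5% within 500 bp.

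Whether HNRNPU knockdown moved H3K4me1 at gene ends that lacked HNRNPU was asked next. The share of members with H3K4me1 was 49.4% ± 4.26 (SD, n = 4) with shHNRNPU and 51.7% ± 1.92 (SD, n = 2) in shLUC, or −2.35 points with shHNRNPU (exact permutation p = 0.533). The median percentile differed by −3.16 (exact permutation p = 0.267). The share relative to HNRNPU-bound sites differed by −2.96 points (exact permutation p = 0.267). All 3 tests were two-sided over 15 assignments, of which the smallest possible p is 0.0667, so none could pass 0.05. The first difference was −5.56 with shHNRNPU#1 and 0.86 with shHNRNPU#2, and the groups overlapped. With the shLUC libraries as titled it was −50.6 and the last of the 3 differences −30.8 (exact permutation p = 0.0667 for each), where the shLUC libraries are those that chose the members. At single members, the H3K4me1 percentile of all 4 shHNRNPU lists was below both shLUC lists at 25 (6.17%), beside 4.52% of all active gene ends, and above both at 8 (1.98%), beside 5.5%. A list without a summit was again ranked below any percentile, so members without H3K4me1 in any list count as neither.

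POLIIS2P was found again at most members with shHNRNPU#1. A summit lay within 500 bp of 344 of the 405 members (84.9%, 95% Wilson interval 81.1 to 88.1), beside 95.3% of all active gene ends and 96.8% of HNRNPU-bound sites. The interval covers counting error only, and this single library has no replicate check. The share was 88.8% at 3′ members and 79.1% at 5′ members. Among members with a summit, the median percentile was 72.8 with shHNRNPU#1 (344 members) and 73.4 and 73.8 in shLUC (all 405, by the rule). Members without a summit are left out of the first value, so it does not show unchanged POLIIS2P. In the shHNRNPU#1 list, 3′ members with a summit stood at 77.6 and such 5′ members at 67.8. HNRNPU-bound 3′ ends with a summit stood at 96.7 and such 5′ ends at 89.0.

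Genes of several functional lists were counted among the members. All counts are of genes with an end within 1000 bp of a site, and over all protein-coding genes 451 of the 5599 at active gene ends (8.06%) were at a member. Of 19 core pluripotency genes, 6 were at active gene ends and 5 of them at HNRNPU-bound ones. Of 16 primed and formative genes 5 were at active gene ends, 4 of them HNRNPU-bound. None of either list was at a member, but the share of all genes at a member comes to fewer than 1 gene of either list. No gene of the naive, signalling feedback, germ layer or HOX lists was at an active gene end.

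Of 82 cytosolic ribosomal protein genes 51 were at active gene ends and 4 at members, among them RPL14, RPS10 and RPS15. RPS15 had H3K27ac percentiles of 90.8 and 93.6 in shLUC and 83.2 to 90.3 in shHNRNPU lists, with POLIIS2P at 97.5 and 98.8 in shLUC. RPS10 had 83.9 and 98.7 in shLUC and 75.8 to 98.9 in shHNRNPU lists. These members, like that of RPL14, were at the 5′ end, with summits 71 bp, 22 bp and 20 bp from it. Of 77 mitochondrial ribosomal protein genes 52 were at active gene ends and 2 at members. Both MRPL12 and MRPS12 were 3′ ends without H3K27ac in any shHNRNPU list, at 48.8 and 40.9 and at 17.3 and 55.5 in shLUC.

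Of 47 proteasome genes 30 were at active gene ends and 3 at members, PSMA7 and the 3′ ends of PSMD13, of the regulatory particle, and PSMB5, a catalytic subunit. PSMB5 had H3K4me1 in all 6 lists and PSMD13 and PSMA7 in none. Of 93 nuclear genes of oxidative phosphorylation 51 were at active gene ends and 2 at members. ATP5F1D, a subunit of ATP synthase, had H3K4me1 percentiles of 97.4 to 99.1 in all 6 lists and H3K27ac in 2 of the 4 shHNRNPU lists. COX7A2, of cytochrome c oxidase, was at a 5′ end with H3K4me1 in all 6 lists, at 53.0 to 79.6.

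Of 79 splicing factor and hnRNP genes 52 were at active gene ends and 3 at members. PRPF6 and PRPF3 are proteins of the spliceosomal tri-snRNP. PRPF6 had H3K27ac in all 4 shHNRNPU lists, at 80.4 to 98.4, and PRPF3 in 1 of 4, at 82.7. Of 37 genes of RNA polymerase II and elongation 18 were at active gene ends and 2 at members. POLR2L, a subunit shared by the nuclear RNA polymerases, was at 82.4 and 93.3 in shLUC and in 3 of 4 shHNRNPU lists. CTR9, of the PAF1 elongation complex, was a 3′ end at 2.49 and 72.8 in shLUC, a pair of repeats far apart, and in none of the shHNRNPU lists.

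Of 497 numbered ZNF genes 225 were at active gene ends and 15 at members. ZNF839 had H3K27ac percentiles of 88.6 and 97.3 in shLUC and 46.6 to 93.4 in shHNRNPU lists, and no H3K4me1. ZNF750 had H3K4me1 percentiles of 92.0 to 98.9 in all 6 lists. ZNF713 was a 5′ end whose nearest HNRNPU summit lay 64505 bp away. Of 333 solute carrier genes 80 were at active gene ends and 8 at members, led by SLC6A6, the taurine transporter, SLC39A13, a zinc transporter, and SLC25A34. Of 102 chromatin regulators 43 were at active gene ends and only KDM1A, a histone demethylase, at a member. KDM1A had 94.8 and 92.1 in shLUC and 77.8, 47.8, 79.3 and 87.6 in the shHNRNPU lists, all below both. The shLUC lists chose the sites, and 22.6% of all active gene ends were lower in the same way, so nothing is read from it. Of 53 cyclin and CDK genes 28 were at active gene ends and 2 at members, CDK10 and CCNH, a part of the CDK-activating kinase. The member of CCNH was at the 3′ end of that gene. The member of CDK10 was classed by the nearer 3′ end of SPATA2L. CCNH had H3K4me1 percentiles of 73.6 to 89.8 in all 6 lists. Of 73 replication-dependent histone genes 25 were at active gene ends and only H3C4 at a member. The share at members was between 2.33% and 11.1% for the lists with a member, around the 8.06% of all genes.

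The promoters of 5′ members were compared with those of HNRNPU-bound 5′ ends. A RefSeq promoter of the site's own gene with its start within 250 bp of the summit was found for 64 of 110 5′ members and 2524 of 3363 HNRNPU-bound 5′ ends, the latter with 2523 different promoters. Over the 250 bases before and 50 after the start, the median GC content was 62.8% at members, 65% at HNRNPU-bound ends and 62.7% over all 21155 protein-coding promoters. A GC box on either strand was in 34 of the 64 member promoters (53.1%), in 74.0% of the HNRNPU-bound and in 56.6% of all promoters. A TATA box (TATAAA) was in 6 member promoters (9.38%), in 3.29% of the HNRNPU-bound and in 9.51% of all. An ETS core (CCGGAAG) was in 11 (17.2%), beside 26.7% and 12.9%, and a CCAAT box in 23 (35.9%), beside 40.9% and 34.4%. The cyclic AMP response element part (TGACGT) was in 5 (7.81%), beside 14.9% and 8.82%. The NRF1 part was in 4 (6.25%), beside 9.31% and 5.18%, the YY1 part (AAGATGG) in 7 (10.9%), beside 9.63% and 5.96%, and AP-1 (TGANTCA) in 1 (1.56%), beside 3.41% and 6.08%. The members' share was nearer to that of the HNRNPU-bound promoters for the YY1 part and AP-1, and nearer to that of all promoters for the other motifs. A match describes these letters only, and no test was made over so few promoters.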

How the data were processed

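The authors deposited 1 MACS2-type summit list per CUT&Tag library; the deposited scores, with no unit stated, were taken for −log10 significance values (q-value or p-value), with lowest values of 2.00 in the histone lists and 1.30 in the others. Peaks were called per library. The submitters' processing notes name cutadapt, Bowtie2, SAMtools, MACS2, deepTools and hg38, without versions. The paper listed for the series describes other experiments and gave no methods here.

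Distances between summits, percentiles of the score within a list and exact permutation tests were computed with Python 3.11.15, numpy 2.4.6, pandas 2.3.3 and scipy 1.17.1, and were tested on simulated positions. Gene ends came from RefSeq (GRCh38.p14), whose table has no strand; strand was taken from the RefSeq promoter table. Groups follow the sample titles, and the antibody of the shLUC histone libraries follows the peak names. Members, gene lists and motifs were chosen with earlier results of these data known, and the split by gene end was added after seeing them. Named members are the 8 with the strongest shLUC H3K27ac, the 6 with the strongest POLIIS2P, the 6 in the fewest shHNRNPU H3K27ac lists (ties by shLUC percentile), up to 3 per gene list and those next to each distance limit. No sequence is shown for 3′ ends, since no genome was used. A few members that this rule names are not reported here.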

Additional observations from a re-analysis of the deposited data

How the results depend on the processing

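Differences are in percentage points. The tests that had missed 0.05 could not pass it in any alternative, because too few libraries were compared. The change of the H3K4me1 share at members turned to 0.86 with shHNRNPU#2 alone, that of its percentile to 0.50 at 5′ ends alone (chosen after seeing the data), and that of the share relative to HNRNPU-bound sites to 1.50 within the middle tertile of the shLUC score. The lower H3K4me1 share of members (−29.8) kept its direction in all 22 alternatives. It no longer passed 0.05 with the shLUC libraries as titled (−20.6). There the shLUC differences were 0 by the rule, so a smaller p was not possible. It also missed 0.05 with shHNRNPU#1 alone (−28.5), with shHNRNPU#2 alone (−30.3) or without any 1 library (−30.5 to −28.9, exact permutation p = 0.0625). In these 3 settings the fewer libraries cannot give a smaller p. The lower H3K27ac share of members ran from −30.9 to −5.65 over 20 alternatives, and without any 1 library from −21.8 to −21.5. With a replicate block, labels were exchanged only within a repeat number, and −2.35, −3.16 and −2.96 had p = 0.667, 0.222 and 0.222 (exact permutation tests). Repeat differences of different groups correlated by −0.026 to 0.027. Whether repeats of the same number shared a culture or batch cannot be told from this. The number of members was 221 with a gene end within 500 bp and 712 within 2000 bp, and 332 to 487 under the other distances. Read depth is unknown, so an absent summit can be an undetected one.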

Other observations

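The members were unevenly spread over chromosomes. Chromosome 19 held 59 members (14.6%), beside 7.42% of the HNRNPU-bound active gene ends. Chromosome 17 held 36 (8.89%, beside 5.52%) and chromosome 16 held 31 (7.65%, beside 3.80%), and chromosome 22 held 20 (4.94%, beside 1.90%). Chromosome 2 held 6 (1.48%, beside 7.00%) and chromosome 1 held 35 (8.64%, beside 10.7%). No test was made. Active gene ends with HNRNPU in 1 repeat lay between the other sets in their median H3K27ac score, at 6.20, beside 5.24 at members and 9.22 at HNRNPU-bound sites. More than 1 gene had an end within reach of 12.8% of the members, 15.1% of the sites with HNRNPU in 1 repeat and 20.8% of the HNRNPU-bound sites.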
